A study of Mus musculus with 6 samples.

Results

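The genes described here are the aminoacyl-tRNA synthetases of mouse bone marrow, 36 nuclear genes in all, of which 20 encode cytosolic enzymes or their subunits and 16 encode mitochondrial enzymes. They were chosen by name, as the genes whose accession on the array matched a synthetase symbol in RefSeq, and each was represented by its brightest probe. All 36 had a probe, and all 36 were well above background on each of the 6 arrays, so none was lost to the filter on dim probes that left 14853 genes to test.

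The mice were ISAM animals (genotype Epo-/-::3.3K-Epo3'-Tg458), which lack the endogenous erythropoietin gene and carry an Epo transgene, and which serve as a model of anemia from erythropoietin deficiency. All groups shared this genotype, a mixed strain background, male sex and an age of 10 weeks, and there was no wild-type group. In 3 samples the mice had received recombinant human erythropoietin (rHuEPO) intraperitoneally, at 3000 U/kg, 6 h earlier. As in the study's design, 2 samples given phosphate-buffered saline (PBS) at the same interval and 1 untreated sample together formed the control arm. Femoral marrow was hybridised on 1 one-colour Agilent array per sample. The labels do not say that each sample was a separate animal, so p-values measure the spread between these samples only.

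A synthetase joins one amino acid to its matching tRNA, and the charged tRNA is what the ribosome reads. Cytosolic and mitochondrial ribosomes are served by different synthetases, most of which are encoded by separate nuclear genes, although the glycine and lysine enzymes serve both compartments from 1 gene each. Erythroblasts translate very large amounts of globin, and when tRNAs stay uncharged or heme runs short, the kinases GCN2 and HRI lead to translation of the transcription factor ATF4, which is known to act on genes of amino acid uptake, amino acid synthesis and tRNA charging.

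Values are log2 signals relative to the 75th percentile of the gene spots on the same array, so a value of 0 is a signal at that percentile, and values of different probes are not compared. A difference is the mean of the 3 rHuEPO arrays minus the mean of the 3 control arrays on this log2 scale, and ± gives limma's standard error (SE). The untreated array shared slide 1 with rHuEPO replicate 1, the other 4 arrays made up slide 2, and the 2 slides were also 2 scans. Gene spots were well above background in shares of 46.2% to 46.6% after rHuEPO and 48.6% to 50.5% in the controls. Negative control spots had array medians of 4.73 to 5.51 after rHuEPO and 3.74 to 4.03 in the controls, and the part of this in the values of dim probes was not tested.

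The synthetase mRNAs lay higher in the rHuEPO arm almost throughout, the cytosolic enzymes more so than the mitochondrial ones, but no single gene passed the test over all genes. Of the 36 differences 34 were above 0, against 47.3% of all genes tested, and the 2 below 0 belonged to Dars and Hars2. The median difference was 0.48 for the 20 cytosolic genes, a 1.40-fold difference, and 0.16 for the 16 mitochondrial genes, a 1.12-fold difference, beside -0.015 over all genes. With no filter on dim probes the median over all genes was 0.10, close under the mitochondrial one, and 28 in place of 34 of the 36 lay above that median. The arms did not overlap for 17 of the 36, all with rHuEPO on top, an order that 5.01% of all genes had. The opposite order was seen for 0 of the 36 and for 5.39% of all genes. In what follows, separated arms means the first of these orders.

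Limma with Benjamini-Hochberg adjustment over all genes called 0 of the 36 higher and 0 lower, the share of all genes called being 0.0673% higher and 0% lower. Before adjustment, limma's p was under 0.05 for 7 of the 36 in the higher direction and 0 in the lower, with 2.44% of all genes listed as higher and 2.51% as lower. These 7 were all cytosolic, namely Farsb, Aars, Cars, Iars, Yars, Farsa and Tars. With slide as a block the differences stay the same because each slide holds both arms in equal proportion, and 15 of the 36 were then listed as higher and 0 as lower at that level, where 5.62% and 5.69% of all genes were. That group comprised 14 cytosolic genes and Yars2, and the adjusted test still called 0 of the 36, where it called 0.0741% of all genes. The adjusted p of the 36 ran upward from 0.804 by limma and from 0.203 with slide as a block.

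**Figure D1:**
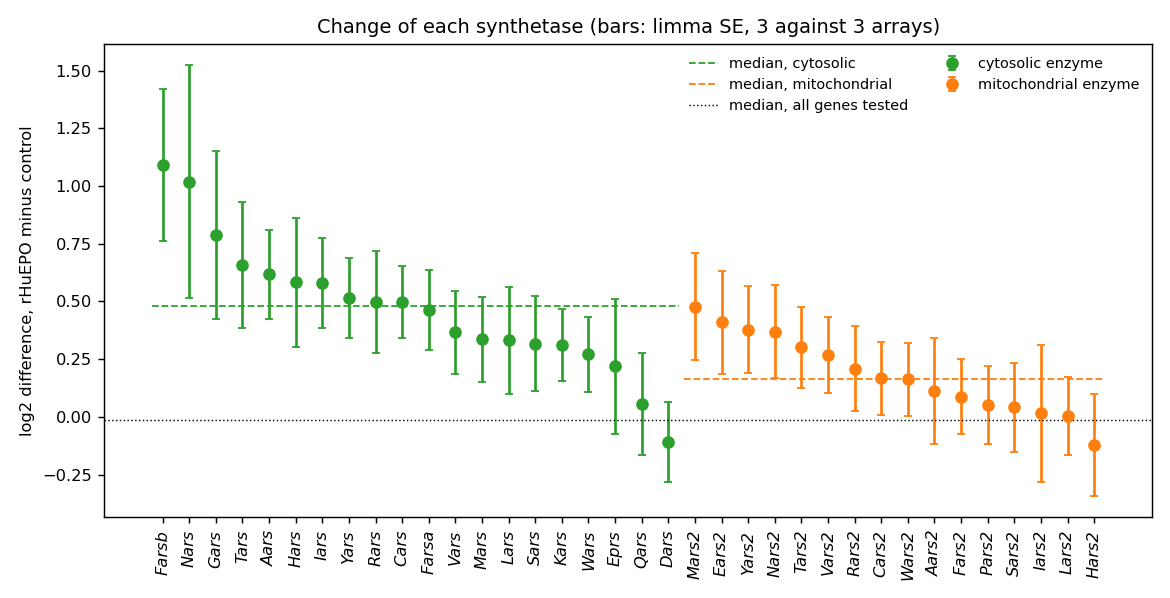
Log2 difference, rHuEPO minus control, of the 36 synthetases, ordered by size within each compartment, with limma's SE as bars (3 against 3 arrays); dashed lines are the medians of the cytosolic (0.48) and mitochondrial (0.16) genes and the dotted line is the median of all genes tested (-0.015). The cytosolic genes run from -0.11 for Dars to 1.09 for Farsb and the mitochondrial genes from -0.12 for Hars2 to 0.48 for Mars2.

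Among the cytosolic enzymes, phenylalanyl-tRNA synthetase is the one built of 2 different subunits, and both of its genes had arms that did not overlap. Farsb, the beta subunit, read -2.81 in the untreated sample, -3.19 and -2.05 in PBS replicates 1 and 2, and -1.73, -1.86 and -1.19 in rHuEPO replicates 1 to 3. The arms were thus separated, with the gap to PBS replicate 2 small beside the spread of the controls. Its difference of 1.09 ± 0.33 (SE, 3 against 3 arrays; limma adjusted p = 0.804) was the largest of the 36, and 0.640% of all genes had a larger one. Under normexp background correction the Farsb difference was 0.13, a point taken up with the other dim probes in the closing section. Farsa, the alpha subunit, read 3.02, 3.10 and 3.29 in the untreated and PBS arrays and 3.55, 3.49 and 3.76 in the rHuEPO arrays. Its 3 tested probes gave differences of 0.46, 0.53 and 0.45, so the probes of this gene were alike.

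Aars, the alanine enzyme, read 3.96 in the untreated sample and 4.29 and 4.39 in the PBS samples, against 4.74, 4.74 and 5.01 after rHuEPO. The arms were apart, and the second Aars probe gave 0.59 beside 0.62 for the brightest. Its difference of 0.62 ± 0.19 (SE, 3 against 3 arrays; limma adjusted p = 0.818) was 0.78 within slide 1 and 0.54 within slide 2. Cars, the cysteine enzyme, showed the tightest groups of the leading genes. It read 2.28, 2.29 and 2.40 in the controls and 2.88, 2.77 and 2.82 after rHuEPO, a difference of 0.50 ± 0.16 (SE, 3 against 3 arrays; limma adjusted p = 0.818). Its other 2 probes gave 0.44 and 0.21.

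Iars, the isoleucine enzyme, was at 2.95 untreated, 2.75 and 3.28 after PBS and 3.51, 3.67 and 3.54 after rHuEPO, so that all 3 treated arrays stood above the highest control. Yars, the tyrosine enzyme, was at 1.70, 1.70 and 1.96 in the controls and 2.25, 2.21 and 2.44 after rHuEPO, again without overlap. Their differences were 0.58 ± 0.19 and 0.52 ± 0.17 (SE, 3 against 3 arrays; limma adjusted p = 0.856 for both). Tars, the threonine enzyme, had a larger difference of 0.66 ± 0.27 with overlapping arms. It read 2.31 untreated and 2.76 and 2.95 after PBS, while rHuEPO replicate 1 read 2.91, below PBS replicate 2, and replicates 2 and 3 read 3.36 and 3.73. Rars, the arginine enzyme, was at -2.72, -3.33 and -2.97 in the controls and -2.26, -2.70 and -2.58 after rHuEPO. These Rars arms were also apart, by 0.50 ± 0.22, but this direction flipped under normexp (-0.35).

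The remaining cytosolic genes with separated arms had smaller differences. Vars, the valine enzyme, read 3.22, 3.09 and 3.52 in the controls and 3.69, 3.56 and 3.69 after rHuEPO, and its highest control, PBS replicate 2, lay close under the lowest treated array. Mars, the methionine enzyme, read 1.76, 1.57 and 1.76 against 2.29, 1.88 and 1.93. Kars, the lysine enzyme, read 2.88, 2.94 and 2.98 against 3.29, 3.16 and 3.28. Both arms of Kars were tight beside the distance between them. Wars, the tryptophan enzyme, which interferon gamma is known to induce, read 2.16, 2.16 and 2.31 against 2.41, 2.61 and 2.42. Their differences were 0.37 ± 0.18, 0.34 ± 0.19, 0.31 ± 0.16 and 0.27 ± 0.16 in that order, and a dimmer probe of Mars gave 0.70. Without rHuEPO replicate 1 the Mars difference was 0.21. For comparison with Wars, 19 interferon gamma response genes had a median difference of 0.041, with 12 above 0, 2 separated and 0 called, and a median of -0.085 with 8 above 0 against PBS alone. The 4 with the smallest p were the transcription factor Irf9 at 0.57 ± 0.21, the GTPase Gbp7 at 0.30 ± 0.25, the transcription factor Irf8 at 0.19 ± 0.17 and the tryptophan-degrading enzyme Ido1 at -0.21 ± 0.22.

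**Figure D2:**
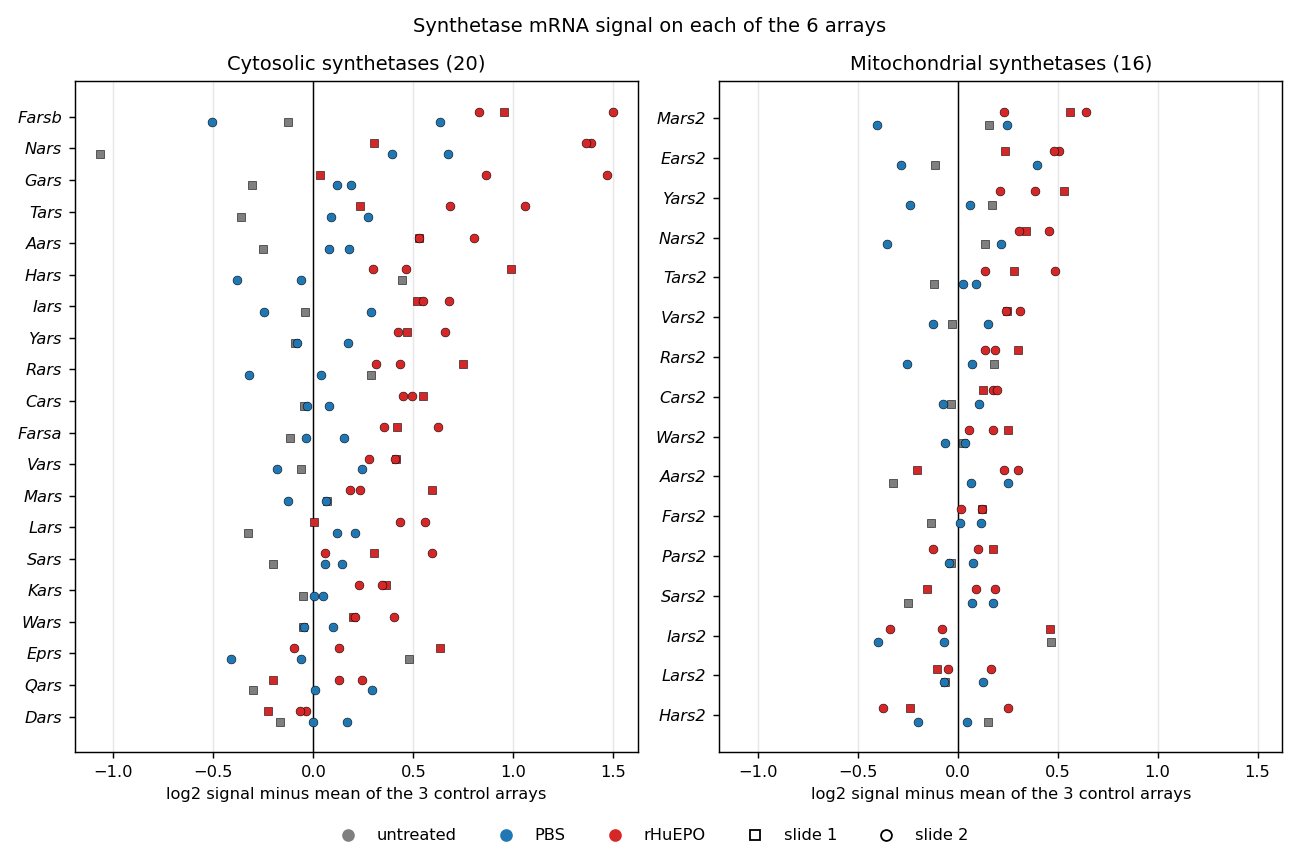
Each point is 1 array: its log2 signal minus the mean of the 3 control arrays, for the 20 cytosolic genes (left) and the 16 mitochondrial genes (right), in order of the difference; grey is untreated, blue PBS and red rHuEPO, with squares for slide 1 and circles for slide 2. Red points lie to the right of all other points for 11 cytosolic and 6 mitochondrial genes, and the untreated square of Nars lies far to the left.

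Leaving out 1 array changed the size of several other cytosolic differences, and it also leaves the arms unequal within a slide. Nars, the asparagine enzyme, read -1.50 in the untreated sample but 0.23 and -0.046 after PBS, and -0.13, 0.95 and 0.92 after rHuEPO. The untreated array was thus far below every other, and rHuEPO replicate 1, on the same slide, lay below both PBS arrays. The Nars difference was 1.02 ± 0.50 with all arrays, 1.37 within slide 1 and 0.84 within slide 2. With slide as a block its SE was 0.17 and its adjusted p, 0.203 by limma, was the smallest of the 36. Without the untreated array, the only control of slide 1, the Nars difference was 0.49. The untreated sample differed from PBS by -1.60 ± 0.49. Gars, the glycine enzyme, read -2.33, -1.90 and -1.83 in the controls and -1.99, -1.16 and -0.55 after rHuEPO, so rHuEPO replicate 1 lay among the controls. Its difference of 0.79 ± 0.36 was 0.34 within slide 1, 1.01 within slide 2 and 0.45 without rHuEPO replicate 3. Hars, the histidine enzyme, read 1.77 untreated and 0.94 and 1.27 after PBS, against 2.32, 1.63 and 1.79. Within each slide the treated arrays of Hars were higher, by 0.54 in slide 1 and 0.60 in slide 2, although the arms overlap across slides. The Hars difference of 0.58 ± 0.28 was 0.38 without rHuEPO replicate 1.

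Lars, Sars and Eprs had overlapping arms and differences of 0.33 ± 0.23, 0.32 ± 0.21 and 0.22 ± 0.29. They charge leucine, serine, and both glutamate and proline. Without the untreated array Lars was at 0.17, and without rHuEPO replicate 3 Sars was at 0.18. Eprs was at 0.014 without PBS replicate 1 and 0.015 without rHuEPO replicate 1, against 0.46 without the untreated array. Its slide 1 arrays read 2.09 (untreated) and 2.24 (rHuEPO), above all slide 2 arrays, which read 1.20 to 1.74. Leaving out an array therefore mixes slide with arm. Within slides Eprs was at 0.15 on slide 1 and 0.25 on slide 2. The 3 Lars probes ranged from 0.036 to 0.46 and the 4 Eprs probes from 0.11 to 0.34. Dars and Qars were the 2 cytosolic genes near 0. Dars, the aspartate enzyme, read 1.69, 2.03 and 1.86 in the controls and 1.63, 1.82 and 1.79 after rHuEPO, a difference of -0.11 ± 0.17 whose 95% interval ran from -0.52 to 0.30. Its probes disagreed in sign, at -0.11 and -0.15 for 2 probes of one transcript and 0.63 for a dim probe of another accession that was well above background on 3 arrays. The sign of the main Dars probe turned under normexp (0.32). Qars, the glutamine enzyme, read 4.61, 5.20 and 4.92 in the controls and 4.71, 5.04 and 5.16 after rHuEPO, a difference of 0.056 ± 0.22. It was below 0 against PBS alone (-0.096) and under quantile normalization (-0.0031), while its second probe gave 0.39.

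Grouped by assembly, the 8 enzymes of the multi-synthetase complex, in which Eprs, Iars, Lars, Mars, Qars, Rars, Kars and Dars are held together by scaffold proteins, had a median difference of 0.32, with 7 above 0 and 4 separated. The 12 cytosolic genes outside the complex had a median of 0.55, with 12 above 0 and 7 separated. Grouped by catalytic fold, the 9 class I genes had a median of 0.37 and the 10 class II genes one of 0.60, while separated arms were seen for 7 class I and 4 class II genes. Eprs carries a domain of each class and was left out of that count. The difference between these subgroups was not tested. The 12 cytosolic synthetases commonly listed as ATF4 targets had a median of 0.51, with 12 above 0 and 6 separated, and the other 8 had a median of 0.42, with 7 above 0 and 5 separated.

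Promoter windows bear on this group because ATF4 and MYC have known binding sequences. RefSeq windows from 250 bases before to 50 bases after a transcript start (GRCm38.p6) were used for 13 of the 20 cytosolic and 14 of the 16 mitochondrial genes. No window was used for Cars, Hars, Lars, Nars, Rars, Vars, Wars, Hars2 and Pars2. Whether the promoters of these genes hold the letters was not tested, and the counts of synthetase windows leave them out. The windows were searched on both strands for the composite site read by ATF4 with its C/EBP partners (TTGCATCA, or TGATGCAA on the other strand), for the E-box read by MYC (CACGTG, the same on both strands) and for letters of the site of NRF1, a factor of genes for mitochondrial proteins (GCGCATGC, or GCATGCGC). The ATF4 letters were found in 4 of the 13 cytosolic windows, among them those of Iars, Tars and Yars, and in 0 of the 14 mitochondrial windows. They were in 0.895% of all 32851 windows of that length, or 0.655% of the windows of tested genes. The matches of Iars, Tars and Yars are shown as examples among the genes described above. Each is 30 bases, 5′ to 3′ in the direction of transcription, with the match in capitals.
Iars, chr13:49682126-49682155, plus strand: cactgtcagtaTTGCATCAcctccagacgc
Tars, chr15:11399655-11399684, minus strand: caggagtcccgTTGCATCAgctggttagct
Yars, chr4:129189895-129189924, plus strand: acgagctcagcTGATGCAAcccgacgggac
The match began at -15 from the start in Tars, 3 in Yars and 7 in Iars, and that of Yars was on the reverse strand. The median difference of the 4 genes with a match was 0.60 and that of the 9 cytosolic genes whose window had no match was 0.32. Farsb and Gars, with larger differences than all 4, were among those 9. The Yars window belongs to a start 169 bases inside the annotated gene.

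The E-box letters were in 4 of the 13 cytosolic windows, among them those of Farsb, Iars and Tars, in the window of 1 mitochondrial gene, Ears2, and in 7.15% of all windows, or 9.93% of the windows of tested genes. Iars and Tars were among those that held both kinds of letters. The E-box of Farsb is shown in capitals because this gene had the largest difference.
Farsb, chr1:78488919-78488948, minus strand: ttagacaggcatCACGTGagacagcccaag
The E-box lay at -39 in Farsb, -69 in Iars and 19 in Tars. A match says only that these letters are present, and the windows and motifs were looked at with the differences already known.

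The mitochondrial synthetases had smaller differences, from -0.12 to 0.48, and 6 of the 16 had separated arms. Yars2, the tyrosine enzyme, read 1.19 untreated, 0.78 and 1.08 after PBS and 1.55, 1.23 and 1.41 after rHuEPO, a difference of 0.38 ± 0.19. All 3 treated arrays of Yars2 were above the highest control, by a small margin for rHuEPO replicate 2. Nars2, the asparagine enzyme, read -2.74, -3.23 and -2.66 in the controls and -2.53, -2.57 and -2.42 after rHuEPO, a difference of 0.37 ± 0.20 that was -0.33 under normexp and 0.19 without PBS replicate 1. Tars2, the threonine enzyme, read 2.81, 2.95 and 3.02 against 3.21, 3.06 and 3.42, and its 2 probes gave 0.30 and 0.33.

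Vars2, the valine enzyme, read 0.37, 0.28 and 0.55 in the controls and 0.65, 0.65 and 0.72 after rHuEPO, a difference of 0.27 ± 0.16. Its 3 treated arrays lay within a narrow band above the controls, but the second probe gave 0.061. Cars2, the cysteine enzyme, read 1.08, 1.22 and 1.04 against 1.24, 1.29 and 1.31, and its second probe differed in sign, at -0.038 beside 0.17. Wars2, the tryptophan enzyme, read -2.76, -2.76 and -2.85 against -2.54, -2.73 and -2.61, a difference of 0.16 ± 0.16 that was -0.40 under normexp. For Cars2 and Wars2 the difference was thus about the size of its SE, although the arms were separated.

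Mars2 and Ears2, which charge methionine and glutamate, had differences of 0.48 ± 0.23 and 0.41 ± 0.22, with arms that overlapped through PBS replicate 2. Without PBS replicate 1 they were at 0.28 and 0.27, below Tars2 at 0.31, and Mars2 was at -0.018 under normexp. Rars2 and Aars2, the arginine and alanine enzymes, were at 0.21 ± 0.18 and 0.11 ± 0.23, with Rars2 at 0.082 without PBS replicate 1 and Aars2 at -0.049 without the untreated array. Fars2, Pars2, Sars2, Iars2 and Lars2, for phenylalanine, proline, serine, isoleucine and leucine, were between 0.0045 and 0.087. The Lars2 probe gave readings of 10.09, 10.27 and 10.08 in the controls and 10.04, 10.10 and 10.31 after rHuEPO, far above the 75th percentile of each array. Lars2 had only 1 probe, and whether this signal comes from Lars2 mRNA alone was not tested. The mitochondrial median and the leucine pair include it. Iars2 varied with the slide and not with the arm, at 1.08 on both slide 1 arrays and between 0.21 and 0.55 on slide 2. Hars2, the histidine enzyme, read -2.65, -3.00 and -2.75 in the controls and -3.04, -3.17 and -2.55 after rHuEPO, a difference of -0.12 ± 0.22.

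The NRF1 letters were in 3 of the 14 mitochondrial windows, in 0 of the 13 cytosolic ones, in 2.71% of all windows and in 4.97% of the windows of tested genes. They are shown for contrast with the cytosolic promoters, in the direction of transcription and with the match in capitals.
Rars2, chr4:34614895-34614924, plus strand: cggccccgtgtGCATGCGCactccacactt
Wars2, chr3:99141015-99141044, plus strand: ccagaggacagGCGCATGCgtagtaagcac
Vars2, chr17:35667599-35667649, minus strand: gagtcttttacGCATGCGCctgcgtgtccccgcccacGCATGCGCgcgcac
The Vars2 window held 2 matches, at -46 and -20, and the single matches were at -51 in Rars2 and -64 in Wars2. The Wars2 window belongs to a start 983 bases inside the annotated gene and that of Vars2 to one 47 bases inside it. The median difference was 0.21 for the 3 genes with a match and 0.17 for the 11 mitochondrial genes whose window had none.

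Enzymes for the same amino acid were then set side by side across the compartments. In 14 of 16 pairs the cytosolic gene had the larger difference, and the median excess was 0.31. The exceptions were methionine (Mars 0.34, Mars2 0.48) and glutamate (Eprs 0.22, Ears2 0.41). The widest gap was for histidine, with Hars at 0.58 and Hars2 at -0.12, followed by asparagine, isoleucine and alanine at 0.65, 0.56 and 0.51. For 4 pairs, those of alanine, cysteine, phenylalanine (Farsa and Fars2) and arginine, the log2 ratio of the cytosolic to the mitochondrial gene had separated arms. An exact two-sided permutation test over the arrays gave p = 0.10 for each of these, the smallest that 3 against 3 arrays allow, and an adjusted p of 0.40 over the 16 pairs, so no pair passed. Eprs serves in 2 pairs, so the pairs are not all independent.

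**Figure D3:**
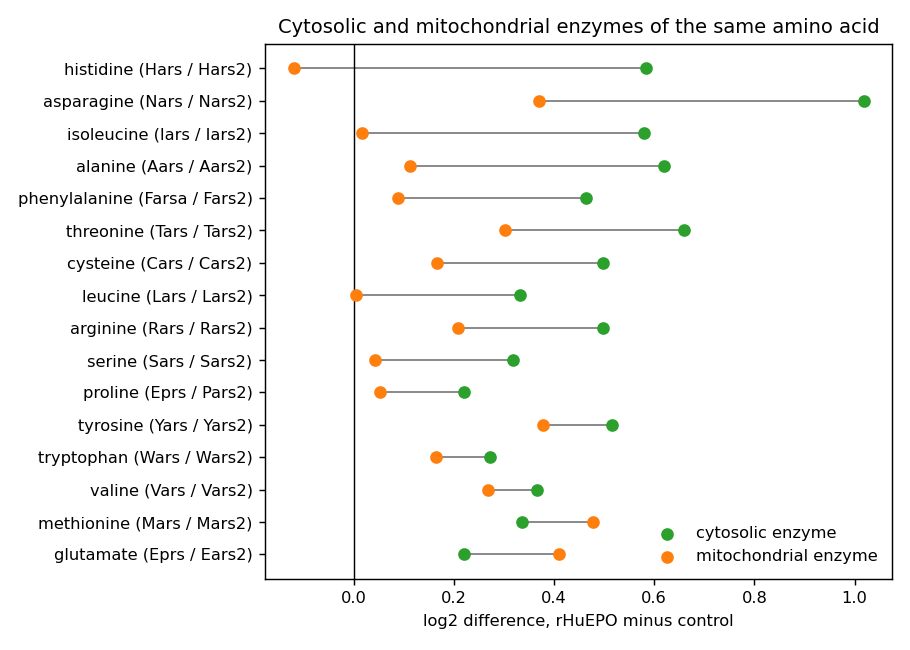
Log2 difference, rHuEPO minus control, of the cytosolic (green) and mitochondrial (orange) enzyme of each amino acid, ordered by the gap between them; Farsa stands for the cytosolic phenylalanine enzyme and Eprs for both glutamate and proline. Green lies to the right of orange in 14 of the 16 pairs.

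Averaged over the genes of each compartment and centred on the 6 arrays, the cytosolic mean was -0.35 in the untreated sample, -0.27 and -0.085 in the PBS samples and 0.16, 0.19 and 0.36 in the rHuEPO samples. The mitochondrial mean was -0.079, -0.21 and 0.010 in the controls and 0.092, 0.019 and 0.16 after rHuEPO. In both compartments the treated arrays were all above the controls, though for the mitochondrial mean rHuEPO replicate 2 was barely above PBS replicate 2. The cytosolic mean minus the mitochondrial mean was -0.27, -0.064 and -0.096 in the controls and 0.063, 0.18 and 0.19 after rHuEPO, so this gap was also ordered by arm.

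Within slides the picture was similar for the cytosolic genes. Of the 20, 19 were above 0 in slide 1 and 19 in slide 2, and the same 19 in both, with medians of 0.52 and 0.44. Of the 16 mitochondrial genes 12 were above 0 in both slides, with medians of 0.21 and 0.15. Together 31 of the 36 were above 0 in both slides, as were 29.7% of all genes tested, whose medians were 0.0048 and -0.019. Slide 1 sets 1 rHuEPO array against the untreated one and slide 2 sets 2 against 2 PBS arrays, so slide and type of control cannot be told apart.

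**Figure D4:**
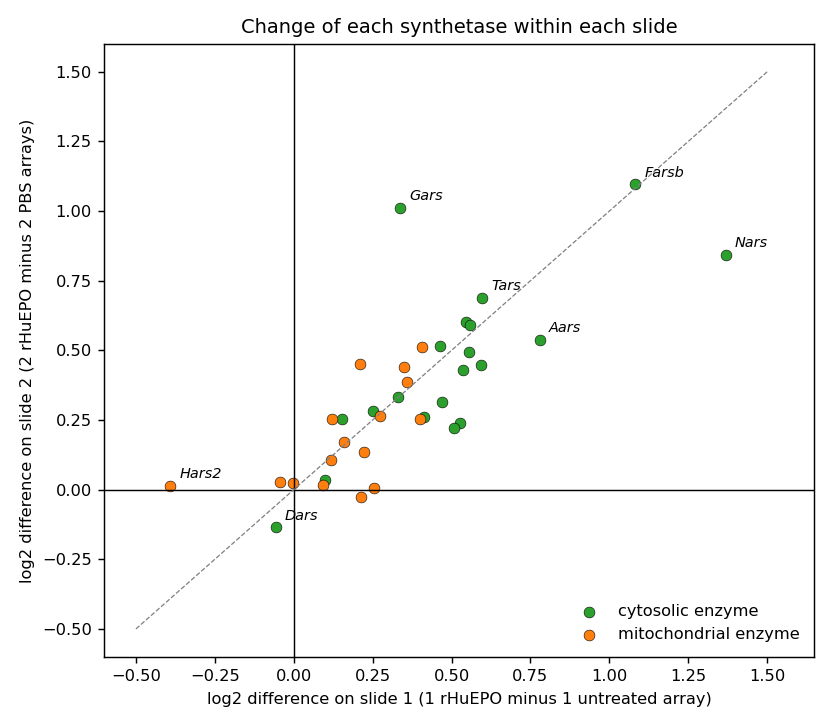
Log2 difference of each synthetase within slide 1 (horizontal, 1 rHuEPO minus 1 untreated array) and within slide 2 (vertical, 2 rHuEPO minus 2 PBS arrays), green for cytosolic and orange for mitochondrial genes; the dashed line marks equal values. Of the cytosolic genes 19 of 20 lie to the upper right of both zero lines, with Dars in the lower left, Nars larger on slide 1 and Gars larger on slide 2.

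Against the 2 PBS arrays alone, in a limma fit with 3 groups, the median difference was 0.46 for the cytosolic and 0.21 for the mitochondrial genes, with 18 of 20 and 12 of 16 above 0, beside -0.059 over all genes. Dars, Qars, Aars2, Hars2, Lars2 and Sars2 were below 0 there. Limma called 0 of the 36, where it called 0.0202% of all genes. The contrast of the untreated sample with PBS uses the same PBS arrays and is given by its own values. Its differences had a median of -0.16 for the cytosolic and -0.047 for the mitochondrial genes, beside -0.11 over all genes, and limma called 0 of the 36 and 0% of all genes. Before adjustment, 1 of the 36, Nars, was listed as lower and 0 as higher at p under 0.05, where 3.66% of all genes were listed as lower and 1.75% as higher (limma adjusted p = 0.676 for Nars).

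Partners of the synthetases were described from a list of 18 genes, all tested, of which 14 were above 0, 4 had separated arms and 0 were called, with a median of 0.18. Eef1e1, a scaffold protein of the multi-synthetase complex, had the smallest p, at 2.17 and 1.96 in the untreated sample and PBS replicate 1 and 2.90, 3.20 and 3.58 after rHuEPO. PBS replicate 2 lay just under the lowest rHuEPO array, giving a difference of 0.88 ± 0.30 (limma adjusted p = 0.856). The other scaffold genes Aimp2 and Aimp1 were at 0.44 ± 0.29 and 0.20 ± 0.25 with overlapping arms. Elac2, which trims the 3′ end of tRNA precursors, was at 0.41 ± 0.17, and Gatc, a subunit of the mitochondrial glutaminyl-tRNA amidotransferase, at 0.31 ± 0.17, both with separated arms. Gcn1, which helps GCN2 sense uncharged tRNA, was at 0.25 ± 0.16 and Eif2ak4, which encodes GCN2, at -0.065 ± 0.30. Xpot, the tRNA export factor, was at 0.36 ± 0.38.

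ATF4 and its known targets outside the synthetases gave a less uniform picture. Of 28 listed genes 24 were tested, 17 were above 0, 5 had separated arms and 0 were called, with a median of 0.23. Against PBS alone the median was 0.053, with 14 of 24 above 0, and the untreated sample differed from PBS by a median of -0.33 on this list. Atf4 itself read 1.54, 1.69 and 2.02 in the controls and 2.10, 2.06 and 2.44 after rHuEPO, without overlap, a difference of 0.45 ± 0.21. Of the 4 genes with the smallest p, the one-carbon enzymes Shmt2 and Mthfd2 were at 0.92 ± 0.23 and 1.11 ± 0.39, the amino acid carrier Slc7a5 at 0.88 ± 0.32 and the asparagine synthetase Asns at 0.46 ± 0.18, the arms of Slc7a5 overlapping. Stress genes of the list had overlapping arms and lay on both sides of 0, with Trib3, Sesn2, Ddit4 and Atf3 at -0.13, -0.12, -0.61 and -0.65 and Chac1, Nupr1, Atf5 and Ddit3 at 0.013, 0.20, 0.25 and 0.29. Translation elongation factors, which act on the ribosome or on one another as the peptide chain grows, had a median of 0.19 over 11 tested genes and 0.075 against PBS alone, with 8 above 0, 2 separated (Tsfm at 0.35 and Eif5a at 0.28) and 0 called. Gfm2 and Eef1d, next by p, were at 0.23 and 0.22 with overlapping arms.

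**Figure D5:**
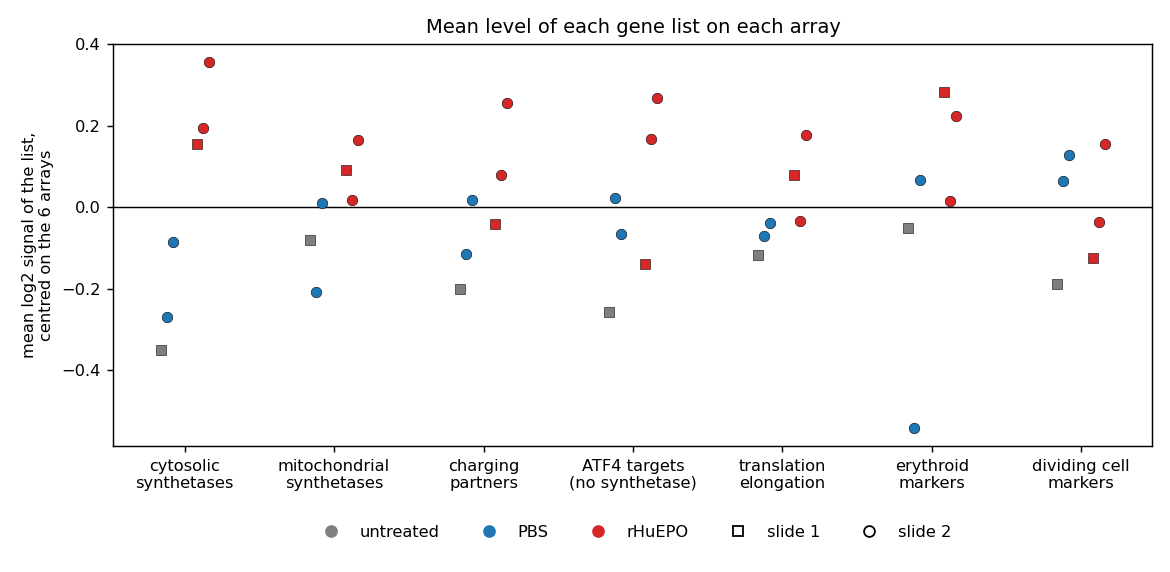
Mean log2 signal of each gene list on each array, centred on the 6 arrays, for the synthetases, their partners, ATF4 targets without the synthetases, elongation factors, and erythroid and dividing cell markers; grey is untreated, blue PBS and red rHuEPO, with squares for slide 1 and circles for slide 2. Only for the 2 synthetase lists and the elongation factors do all red points lie above all others, by a very small margin for the mitochondrial synthetases and the elongation factors.

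Marker lists describe which cells the marrow RNA came from, and in bulk RNA fewer cells of a type cannot be told apart from less RNA per cell. All 10 erythroid and all 8 B lineage markers, 9 of 10 neutrophil and 7 of 8 monocyte markers were tested, so the defining genes of marrow were present. Of the erythroid markers 8 of 10 were above 0, with a median of 0.34, 2 separated genes, among them the transferrin receptor gene Tfrc at 0.97, and 0 called. The erythroid mean ran from -0.54 to 0.066 on the control arrays and from 0.016 to 0.28 on the rHuEPO arrays, so the arms overlapped. The part of the erythroid share in the synthetase values was not tested. Markers of dividing cells had a median of -0.010, with means from -0.19 to 0.13 on the control arrays and from -0.12 to 0.16 on the rHuEPO arrays. The B lineage mean was -1.44 in PBS replicate 1 and 0.98 in PBS replicate 2, and ran from -0.35 to 0.26 after rHuEPO. Medians of the neutrophil, monocyte, T and NK, plasma cell and megakaryocyte lists were 0.0064, 0.052, 0.070, -0.18 and -0.14. The megakaryocyte mean was -1.17 in rHuEPO replicate 1 and 0.84 in rHuEPO replicate 2, and its median difference was -1.25 on slide 1 and 0.36 on slide 2. The plasma cell median was 0.23 on slide 1 and -0.38 on slide 2.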

How the data were processed

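Per the labels' protocols, total RNA from femoral marrow was Cy3-labelled for one-colour Agilent arrays. The deposited scanner files give spot intensity (Feature Extraction version 10.7.3.1, file headers). The authors' deposited value table gives log2 values with no stated scaling. It matched the scaling used here with each probe centred on its median (lowest slope 0.9988, largest median absolute difference 0.0131), so scale, centring and direction are known. Its medians by column were -0.103 (untreated), -0.0569 and -0.0976 (PBS), and 0.117, 0.0111 and 0.0867 (rHuEPO).

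Processed signals were put on the log2 scale less the 75th percentile of each array's gene spots. Left out were 1639 control spots and outlier spots. Spots of 1 probe were averaged, and 17 of 41174 probes lacked a usable value. Probes needed to be well above background on 3 or more arrays (19590 probes), and the brightest stood for its gene. No spot was saturated. Of the probes 64.8% matched a RefSeq symbol (GRCm38.p6). Tests used R 4.3.3 and limma 3.58.1 (two-sided, Benjamini-Hochberg over 14853 genes, threshold 0.05), and the script was tested on simulated data. The array number limits the precision.

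Members and lists were chosen with earlier results of these data known. By rule, values per array are given for the 8 members with the smallest p, those with separated arms and those whose probes differ in sign, and the other lists are shown by their 4 smallest p. Further members and genes named (Nars, Gars, Hars, Qars, Hars2, Iars2, Lars2, Atf4, stress genes, scaffold genes, Xpot, Eif2ak4) were chosen after their values were seen. Replicate numbers are shared between groups, but PBS and rHuEPO arrays of the same number did not deviate together (correlation of deviations -0.11), so no pairing was used. Correlations between arrays were 0.964 to 0.991, and none was treated as a duplicate. Alternatives were other scalings, background correction, filters, probe rules, controls, blocks and leaving out each array. Slide was taken from the barcode in the file headers.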

Additional observations from a re-analysis of the deposited data

How the results depend on the processing

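Under every alternative with a test, 0 of the 36 synthetases were called by limma. The median difference was 0.48 for the cytosolic genes and 0.39 to 0.53 with 1 array left out. It was 0.16 for the mitochondrial genes and 0.15 to 0.21 with 1 array left out, and the gap between the medians was 0.32 and 0.23 to 0.33. The number of cytosolic genes above 0 was 18 to 20 and that of mitochondrial genes 12 to 16 over all alternatives. With the replicate block the medians were 0.40 and 0.17, and limma called 0 of the 36 and 1 gene in all. Normexp on median signals moved the cytosolic median to 0.74 and the gap to 0.50. It also tilted all genes, with medians of -0.43 for the dimmest and 0.46 for the brightest of 3 equal groups by signal, against -0.096 and 0.035 in the values reported. The brightest group held 13 of the 20 cytosolic but only 2 of the 16 mitochondrial genes, so the wider gap also reflects this tilt. In that group the cytosolic median was 0.77 under normexp and 0.37 without it, and the mitochondrial median 0.63 and 0.15. Under normexp 29 of the 36 lay above the median over all genes, in place of 34. Dim members moved the other way, with Farsb at 0.13, Gars at 0.061, Rars at -0.35, Nars2 at -0.33, Wars2 at -0.40 and Mars2 at -0.018. Beyond normexp, sign changes were seen for Dars, Qars, Aars2, Hars2, Iars2, Lars2, Pars2 and Sars2, whose differences lay between -0.12 and 0.11. The cause of these moves was not tested. The number of genes called in all was 10, between 1 and 12 over the alternatives.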
